A study of Mus musculus with 6 samples.

Results

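Kinesins are motor proteins that walk along microtubules, and centromere proteins (CENPs) build the platform on each chromosome to which spindle microtubules attach. The genes described here are the 57 whose symbol is Kif followed by a number, or Cenp followed by 1 letter, out of 49492 genes in the count table. They comprise 39 Kif names and 18 Cenp names. The names gather proteins of different duties: 13 mitotic kinesins, 13 transport kinesins, 12 other kinesins, 2 genes that are not kinesins, 2 proteins of the centromeric nucleosome or its DNA, 12 subunits of the constitutive centromere-associated network and 3 further CENPs. Cenpe is counted with the mitotic kinesins, since it is itself a motor. The pattern left out 9 genes with similar names, such as Kifc1, Kifap3 and Cenpc1.

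The RNA came from HL-1 cells, a mouse line derived from an atrial cardiomyocyte tumour that goes on dividing in culture. In 3 libraries the cells had been transfected with ZNF593-AS, a human long noncoding RNA, and in 3 libraries with vector. All 6 libraries came from cells under palmitic acid, a saturated fatty acid, so none shows the cells without it. The labels give neither its dose and duration nor whether replicates were separate cultures, so a p-value reflects only how far these samples spread, which may be technical. The treatment field of ZNF593-AS replicate 2 names ZNF594-AS instead, and that of replicate 3 names ZNF595-AS. All were grouped by title. Gene counts summed to 84547615, 73667864 and 61042914 in ZNF593-AS replicates 1 to 3, against 57191340, 51470457 and 73529088 in vector replicates 1 to 3.

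The labelled cell type was checked against its markers. Of 12 atrial cardiomyocyte markers, 9 averaged under 1 CPM (the count scaled to the library's TMM-adjusted total). Nppa, Sln and Kcna5 had no count in any library and Myl7 had counts in 1 library, so these defining atrial markers are at or near 0. Of the 5 that could be tested, Bmp10 was lower, with at most 0.0323 CPM in ZNF593-AS libraries and 1.22 to 1.94 CPM in vector libraries. Tnnt2, the cardiac troponin T gene, was present at 90.3 to 107.0 CPM in ZNF593-AS libraries and 83.9 to 95.7 CPM in vector libraries. The 8 fibroblast markers summed to 386.4 to 463.5 CPM in ZNF593-AS libraries and 507.0 to 523.6 CPM in vector libraries. By the test used below, of the 6 that could be tested 3 were lower, all of them collagen genes, and 1 higher. That test called 8.4% of all genes. Dcn (0.26) and Postn (-0.14) did not pass. Col1a1, Col1a2 and Col3a1 had log2 fold changes of -0.45, -0.25 and -0.36, and Pdgfra had 0.39. Col1a2 averaged 207.8 CPM in ZNF593-AS and 246.7 CPM in vector libraries, and Pdgfra 7.97 and 6.07 CPM. Lum and Tcf21 of that list were at or near 0 counts, and the part of such a shift in the results below was not tested. All 6 endothelial markers were under 1 CPM, as were 4 of 6 macrophage and 2 of 6 smooth muscle and pericyte markers. Of the macrophage list, which summed to 9.04 to 10.3 CPM in ZNF593-AS and 7.45 to 8.63 CPM in vector libraries, Cd68 was higher (0.46 ± 0.13, edgeR adjusted p 0.0316). Cd68 alone had 6.01 to 6.79 CPM in ZNF593-AS and 3.67 to 5.17 CPM in vector libraries. Lyz2 (-0.53), Csf1r (-0.03) and Ptprc (0.22) did not pass, and Lyz2 was lower without overlap. Adgre1 and Itgam had too few counts for the test. The smooth muscle and pericyte list summed to 204.0 to 290.3 CPM in ZNF593-AS and 172.6 to 199.5 CPM in vector libraries. Acta2 (0.45 ± 0.13) and Tagln (0.40 ± 0.12) of that list had edgeR adjusted p-values of 0.0583 and 0.0593, and DESeq2 called both. Myh11 (-0.16), Rgs5 (-0.51), Cnn1 (0.002) and Pdgfrb (0.01) did not pass, and the list's median was 0.009. Acta2 alone had 156.4 to 231.5 CPM in ZNF593-AS and 128.3 to 149.2 CPM in vector libraries, most of the list's sum. The part of these markers in the results was not tested either. In bulk RNA, fewer cells of a type and less RNA per cell cannot be told apart.

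As background, transport kinesins carry vesicles, endosomes and mitochondria along interphase microtubules, while mitotic kinesins separate the spindle poles, align chromosomes and complete cytokinesis. Mitotic genes are transcribed mainly in G2 and M phase, so their RNA in a culture tracks how many of its cells are dividing. Centromeres are marked by the histone variant CENP-A, on which the constitutive centromere-associated network assembles. Adult heart muscle cells hardly divide, whereas HL-1 cells do.

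Levels of different genes were compared per length as TPM, the count divided by exon length and scaled to the same sum in each library. Cenpb was the most abundant of the 57 at 194.5 ± 28.0 TPM (SD, n = 6), and Kif5b stood next at 174.2 ± 10.4 TPM. Cenpb binds a short box in centromeric repeats, and Kif5b is the ubiquitous heavy chain of conventional kinesin. The difference between these 2 genes is within the spread of Cenpb. Kif3a, a motor subunit of kinesin-2, followed at 144.8 ± 15.8 TPM. Cenpq, a subunit of the constitutive network, had 100.7 ± 4.18 TPM and Kif1c, a vesicle motor, 98.8 ± 5.18 TPM, a pair that does not differ beyond its spread.

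Among the mitotic kinesins Cenpe led with 29.6 ± 2.69 TPM. Kif11, the Eg5 motor that pushes spindle poles apart, had 24.7 ± 1.24 TPM, and Kif20a, which carries the chromosomal passenger complex to the spindle midzone, had 23.9 ± 1.90 TPM. The last 2 do not differ beyond their spread. Below 1 TPM lay 15 members, among them Kif1a, Kif5a, Kif5c and Kif17, kinesins best known from neurons. The transport kinesins above that level were thus Kif5b, Kif3a, Kif1c, Kif3b, Kif3c, Kif13a, Kif16b, Kif1b and Kif13b.

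**Figure D1:**
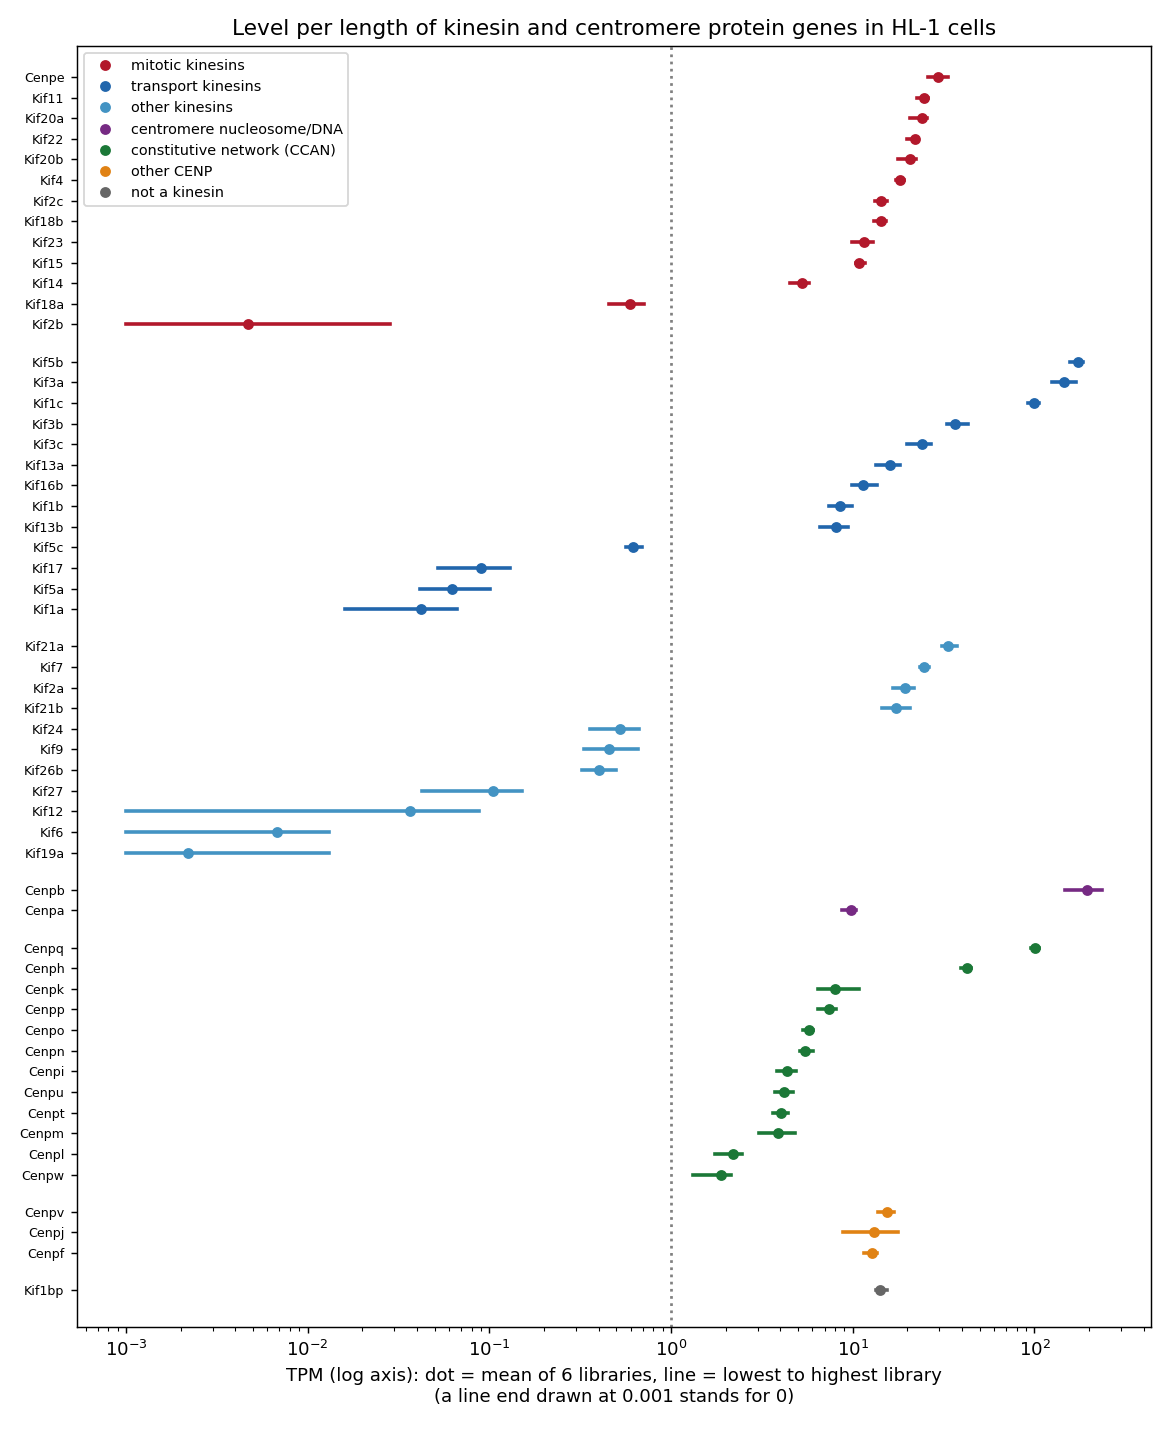
Level per length (TPM, log axis) of the members with a count, by role; dots are means of 6 libraries and lines run from the lowest to the highest library. Cenpb, at 194.5 TPM, and Kif5b, at 174.2 TPM, stand at the top, and 15 members of the 57 lie under 1 TPM, including 2 with no count that cannot be drawn.

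ZNF593-AS was compared with vector by edgeR's quasi-likelihood test over 16473 genes, 51 of the members among them, with p-values adjusted by Benjamini-Hochberg over all genes and called under 0.05. Fold changes are ZNF593-AS over vector. The 6 members with too few counts for the test were Kif2b, Kif6, Kif12, Kif19a, Kif26a and Kif16bos, of which Kif12 had the most, 22 counts over all libraries. Kif26a and Kif16bos had 0 counts, which allows up to 0.0149 CPM for each over all libraries (3 fragments, with both mates counted, and counting error only).

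Of the 51 tested members 3 changed. Cenpj fell 1.84-fold, Cenpe fell 1.21-fold and Kif3c rose 1.17-fold. The share called, 5.88%, lies under the 8.4% called among all genes tested. The same 8.4% is the share to set beside edgeR's calls in each role and list below. Lower members numbered 2 of 51, against 6.16% of all genes, and higher members 1 of 51, against 2.23% of all genes. Library totals in place of TMM scaling added 0.087 to 0.093 to the log2 fold change of every tested member, so 12 members below 0 came out above it by that scaling alone. With them the whole table's calls went to 1284 higher and 811 lower, against 368 and 1015 with TMM, and the members' calls to 6 higher and 1 lower.

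The CPM of the 2 groups did not overlap for 15 of 51 members (29.4%), near the 25.8% of all genes tested. The median log2 fold change of the members was -0.004 and that of all genes 0.009, and the median size of the change was 0.127 for the members and 0.124 for all genes. For 41 of the 51 members the 95% interval of the fold change stayed within 1.5-fold either way. The intervals of the other 10 reached past it, namely that of Cenpj, which lies wholly below, those of Cenpk and Cenpw, and those of 7 genes under 1 TPM.

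**Figure D2:**
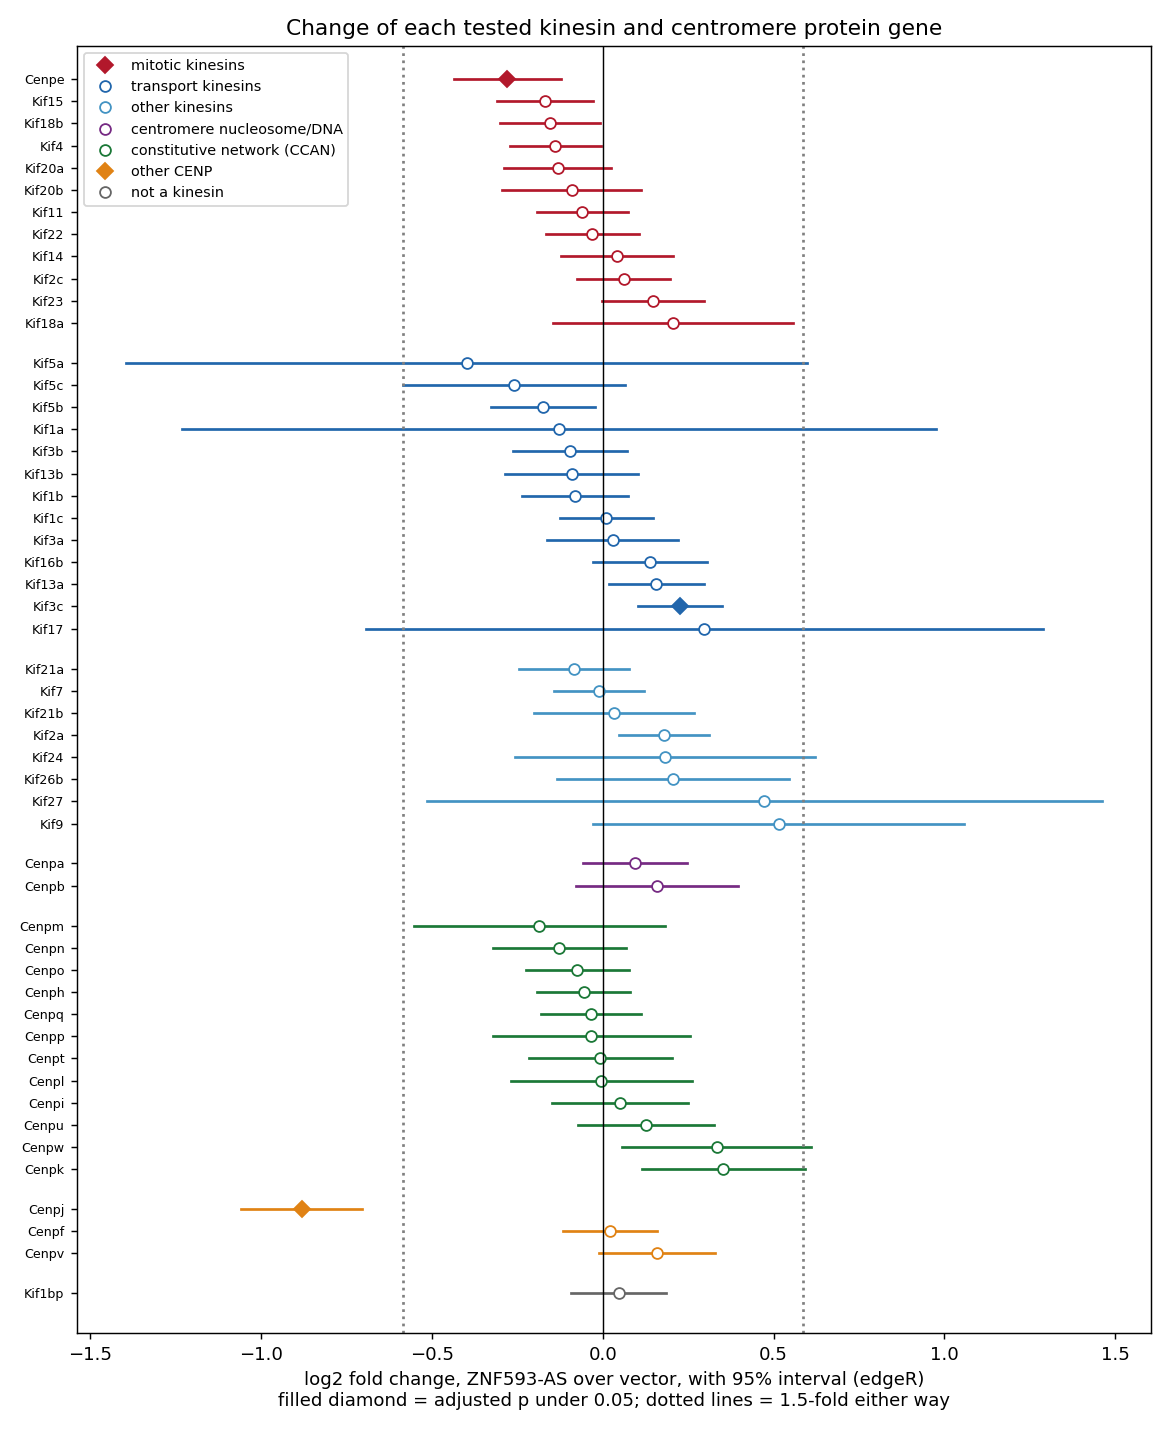
Log2 fold change of each tested member, ZNF593-AS over vector, with its 95% interval, grouped by role; filled diamonds mark an adjusted p under 0.05 and dotted lines mark 1.5-fold either way. Cenpj, at -0.88, stands apart from the other Cenp genes, while the mitotic kinesins lie between -0.28 and 0.21.

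Cenpj encodes CPAP, a tubulin-binding protein that builds centrioles and shares only its name series with the kinetochore proteins. It had 16.5, 18.05 and 19.1 CPM in ZNF593-AS replicates 1 to 3, against 36.2, 29.45 and 33.0 CPM in vector replicates 1 to 3. Every ZNF593-AS library was below every vector library. Cenpj averaged 17.9 ± 1.28 CPM in ZNF593-AS and 32.9 ± 3.38 CPM in vector libraries (SD, n = 3 each). The log2 fold change was -0.88 ± 0.08 (SE), with a 95% interval of -1.06 to -0.70 and an edgeR adjusted p of 8.05e-07. It remained called under every alternative tried and without each library in turn, where it ranged from -0.95 to -0.80.

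In the deposited coordinates (GRCm38, chromosome 14, 56526761 to 56571846, minus strand) Cenpj has 17 merged exons. None of its exon bases is shared with another gene in the table, and none of its 50-base stretches occurs in a transcript of another gene. The nearest tested gene beyond its start, Parp4, lies 3772 bases away on the opposite strand. Parp4 encodes a poly(ADP-ribose) polymerase of vault particles. It had 28.5, 28.0 and 27.8 CPM in ZNF593-AS libraries, against 32.3, 36.5 and 38.0 CPM in vector libraries, and was lower with a log2 fold change of -0.34 ± 0.07 (edgeR adjusted p 0.00438). Beyond the end of Cenpj, the nearest tested gene, Gm5801, lies 515445 bases away and did not pass (-0.07). Beside Cenpe, Tet2, 1667397 bases away, was lower (-0.45, edgeR adjusted p 0.000398), and Bdh2, 7609 bases away, did not pass (0.37). Rab10, 55162 bases before Kif3c, did not pass (-0.02). A link between neighbours was not tested.

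Other genes of centriole assembly were listed after the values of Cenpj had been seen. Of 18, all tested, 0 were called by edgeR, DESeq2 or limma-voom, with 1 lower (Plk4) and 1 higher (Cntrob) at an unadjusted p under 0.05. Their median log2 fold change was -0.02. Plk4, the kinase that starts centriole duplication, had 43.5, 47.1 and 46.0 CPM in ZNF593-AS libraries and 50.6, 53.1 and 50.04 CPM in vector libraries, at an edgeR adjusted p of 0.117. Cntrob, which encodes the daughter centriole protein centrobin, had 16.8, 17.2 and 17.25 CPM in ZNF593-AS libraries and 13.1, 14.8 and 15.5 CPM in vector libraries (edgeR adjusted p 0.0852). Neither group pair overlapped.

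**Figure D3:**
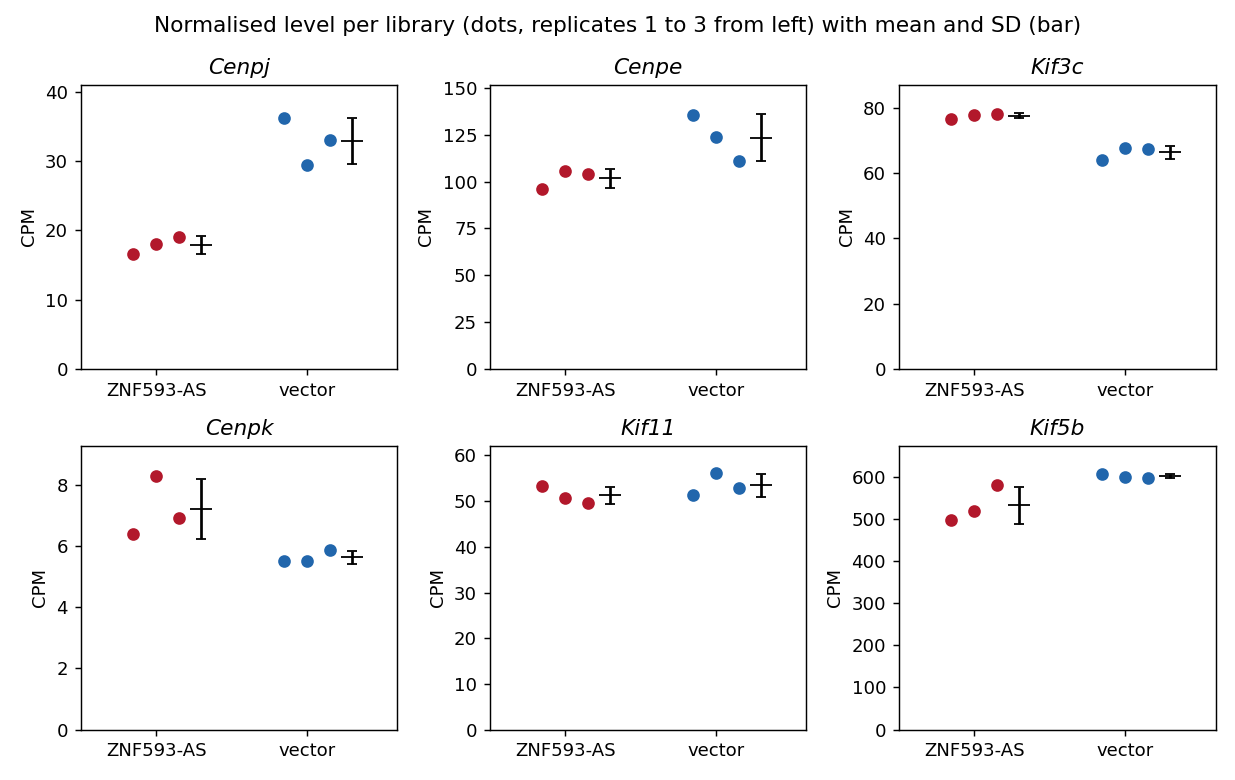
CPM in each library (dots, replicates 1 to 3 from left) with the mean and SD beside them, ZNF593-AS left and vector right in each panel. Cenpj, Cenpe, Kif3c, Cenpk and Kif5b do not overlap between the groups, the widest separation being that of Cenpj, with at most 19.1 CPM in ZNF593-AS and at least 29.45 CPM in vector libraries; Kif11 overlaps.

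Of the mitotic kinesins 12 were tested, and 1, Cenpe, was called. That is 8.33%, near the 8.4% of all genes tested. CENP-E is a long kinetochore motor that brings chromosomes to the spindle equator. Cenpe had 95.9, 105.4 and 103.8 CPM in ZNF593-AS libraries, against 135.6, 123.8 and 110.8 CPM in vector libraries. The groups did not overlap, but vector replicate 3 lay close to the highest ZNF593-AS library. The log2 fold change was -0.28 ± 0.07, with an edgeR adjusted p of 0.0245. The call was lost with library totals (-0.19, adjusted p 0.0906) and without vector replicate 1 (-0.20, adjusted p 0.155) or replicate 2 (-0.28, adjusted p 0.056). It was also lost without ZNF593-AS replicate 1 (-0.24, adjusted p 0.0919) or replicate 3 (-0.29, adjusted p 0.0705), all by edgeR.

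The other 11 tested mitotic kinesins did not pass. Kif15, which helps to hold the spindle bipolar, had 49.1, 48.05 and 50.9 CPM in ZNF593-AS libraries and 57.0, 58.5 and 51.0 CPM in vector libraries (log2 fold change -0.17 ± 0.07, edgeR adjusted p 0.15). Its groups did not overlap, yet ZNF593-AS replicate 3 and vector replicate 3 were almost equal. Without vector replicate 3 Kif15 was called lower (-0.23, edgeR adjusted p 0.049). Kif11 had 53.3, 50.8 and 49.7 CPM in ZNF593-AS libraries and 51.3, 56.1 and 52.9 CPM in vector libraries, so its groups overlapped. Its log2 fold change was -0.06 ± 0.06 (edgeR adjusted p 0.653). Kif20a had 41.3, 38.8 and 34.0 CPM in ZNF593-AS libraries and 40.2, 43.0 and 42.0 CPM in vector libraries. These overlapped as well (-0.13 ± 0.07, edgeR adjusted p 0.343), and 33.2% of the exon bases of Kif20a lie in Cdc23 on the opposite strand.

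As a group, 8 of the 12 tested mitotic kinesins were below 0 and 4 above, with a median log2 fold change of -0.08. At an unadjusted p under 0.05, 4 were lower (Cenpe, Kif15, Kif18b and Kif4) and 0 higher. The share of all genes at that unadjusted level was not taken. Such counts, here and for the other roles and lists, therefore cannot be set against it and are not read as a leaning. Kif18b trims astral microtubules and Kif4 is a chromokinesin. Of the exon bases of Kif4, 15.1% lie in Pdzd11 on the opposite strand. Kif23, a subunit of centralspindlin, had the smallest p of those above 0, with 41.7, 40.35 and 44.4 CPM in ZNF593-AS libraries and 36.6, 41.45 and 36.1 CPM in vector libraries. Its log2 fold change was 0.15 ± 0.07 (edgeR adjusted p 0.253), and with library totals it passed (0.24, adjusted p 0.0435) while Cenpe did not. With TMM scaling all 12 had 95% intervals within 1.5-fold either way. By that scaling a larger change of any of them lies outside its interval. Kif18a, which averaged 0.60 TPM, came nearest to that limit, with an interval from -0.15 to 0.56 on the log2 scale. Its log2 fold change was 0.21 with TMM and 0.30 with library totals. With library totals the group's median turned to 0.02, while that of all genes went to 0.10.

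The following lists of genes that work beside the mitotic kinesins gave 0 calls, where edgeR called 8.4% of all genes tested. Each list is short, so its count is not read as a result about its genes. Of 10 tested genes of the outer kinetochore (the Knl1, Mis12 and Ndc80 complexes), 0 were called by edgeR, DESeq2 or voom, and 0 had an unadjusted p under 0.05. Zwint, which had the smallest p of that list, had 473.1, 468.7 and 466.4 CPM in ZNF593-AS libraries, against 512.1, 523.4 and 505.7 CPM in vector libraries (edgeR adjusted p 0.259). The 11 tested spindle checkpoint genes and the 4 chromosomal passenger genes likewise held 0 calls by any of the 3 tools and 0 unadjusted p-values under 0.05. Their smallest p-values were those of Mad1l1 (-0.12 ± 0.06, edgeR adjusted p 0.32) and Cdca8 (-0.12 ± 0.07, edgeR adjusted p 0.408). Of 14 spindle and cytokinesis partners, 0 were called by the 3 tools, and 2 were lower and 1 higher at an unadjusted p under 0.05. Prc1, the microtubule bundler of the midzone, had the smallest p of these, with 162.1, 150.9 and 146.4 CPM in ZNF593-AS libraries and 172.1, 175.0 and 173.6 CPM in vector libraries (-0.18 ± 0.06, edgeR adjusted p 0.0926).

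Among 12 proliferation markers 1 was called by edgeR and by voom, Pcna, the sliding clamp of DNA replication, and DESeq2 called Top2a as well. Pcna had 77.3, 70.8 and 69.1 CPM in ZNF593-AS libraries, against 86.5, 86.3 and 81.3 CPM in vector libraries (-0.23 ± 0.06, edgeR adjusted p 0.0339). That call was lost with library totals (-0.13, adjusted p 0.219) and when vector replicate 1 or 2, or else ZNF593-AS replicate 2 or 3, was left out. Top2a, the topoisomerase of dividing cells, had 333.2, 314.4 and 348.0 CPM in ZNF593-AS libraries and 406.2, 393.1 and 361.4 CPM in vector libraries, without overlap (-0.22 ± 0.07, edgeR adjusted p 0.0625 and DESeq2 adjusted p 0.0254). Cdc25c and E2f1 were higher at an unadjusted p under 0.05 (0.23 ± 0.09 for both, edgeR adjusted p 0.152 and 0.173). Mki67, the usual marker of cycling cells, had 128.8, 137.0 and 131.6 CPM in ZNF593-AS libraries and 137.1, 143.8 and 117.7 CPM in vector libraries, so its groups overlapped. The median log2 fold change of the 12 was 0.001.

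Of 13 transport kinesins, all tested, Kif3c rose and 12 did not pass, of which Kif13a passed with library totals (0.25, edgeR adjusted p 0.0306). The share called, 7.69%, is near the 8.4% of all genes tested. Kif3c is an alternative motor subunit of kinesin-2, which hauls cargo along axons and other microtubule tracks. It had 76.8, 78.0 and 78.2 CPM in ZNF593-AS libraries, against 64.2, 67.6 and 67.4 CPM in vector libraries. The libraries within each group were close together and the groups did not overlap. The log2 fold change was 0.23 ± 0.06, with an edgeR adjusted p of 0.0205. The call was lost without vector replicate 1 (0.20, adjusted p 0.0875), ZNF593-AS replicate 2 (0.22, adjusted p 0.0858) or ZNF593-AS replicate 3 (0.22, adjusted p 0.0736), by edgeR.

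The value of Kif3c is uncertain for another measured reason. It shares 38.2% of its exon bases with 1110002L01Rik on the opposite strand, and the strand setting of the counting is not given in the sources used here. The partner had 27.2, 23.7 and 23.5 CPM in ZNF593-AS libraries and 21.8, 22.3 and 21.7 CPM in vector libraries (0.18 ± 0.07, edgeR adjusted p 0.179). Without that setting, how reads of the shared bases were assigned is not known. Of the tested members, 15 share exon bases with a gene on the opposite strand, 8 of them at least 10% of their exon bases.

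Kif5b had 497.2, 517.9 and 581.3 CPM in ZNF593-AS libraries, against 606.3, 598.3 and 597.1 CPM in vector libraries. The groups did not overlap, with ZNF593-AS replicate 3 near the vector libraries, and the log2 fold change of -0.17 ± 0.07 did not pass (edgeR adjusted p 0.174). Kif3a had 207.4, 219.8 and 263.2 CPM in ZNF593-AS libraries and 234.6, 201.4 and 240.3 CPM in vector libraries. Kif1c had 298.7, 322.8 and 328.2 CPM in ZNF593-AS libraries and 315.2, 315.2 and 312.7 CPM in vector libraries. Both overlapped between the groups, with log2 fold changes of 0.03 ± 0.09 for Kif3a and 0.01 ± 0.06 for Kif1c (edgeR adjusted p 0.899 and 0.956). Kif3a turned to -0.05 without vector replicate 2 and to -0.08 without ZNF593-AS replicate 3, and Kif1c to -0.01 without ZNF593-AS replicate 3.

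The transport kinesins had a median log2 fold change of -0.08, with 7 below 0 and 6 above, and at an unadjusted p under 0.05 there were 1 lower and 2 higher. Between mitotic and transport kinesins the medians differed by 0.006. That difference ran from -0.105, without vector replicate 3, to 0.047 when single libraries were left out, so its sign was not stable. Of the transport kinesins, 9 had intervals within 1.5-fold either way, and the other 4 were the genes under 1 TPM. With library totals the group's median was 0.007.

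Kinesins of a role also varied between libraries of the same group. Of the 9 transport kinesins above 1 TPM, 7 stood above their own group's mean in ZNF593-AS replicate 3, and 7 did so in vector replicate 3. All 4 of the other kinesins above 1 TPM stood above their group's mean in both of these libraries. In ZNF593-AS replicate 1, by contrast, 1 of the 9 transport kinesins and 0 of the 4 other kinesins stood above. Of the 11 mitotic kinesins above 1 TPM, 8, 4 and 6 stood above their group's mean in ZNF593-AS replicates 1 to 3. In vector replicates 1 to 3 the numbers were 5, 9 and 4. Genes grouped as centromere proteins are the 17 Cenp names other than Cenpe. Of these, 9, 8 and 10 stood above their group's mean in ZNF593-AS replicates 1 to 3, and 10, 9 and 8 in vector replicates 1 to 3. The roles thus did not all move together within a library. The share of all genes above their group's mean in each library was not taken. Whether whole libraries or single roles shifted was therefore not tested. The median deviation of the transport kinesins from the mean of all 6 libraries was -0.07, 0.02 and 0.04 in ZNF593-AS replicates 1 to 3 and -0.10, -0.001 and 0.08 in vector replicates 1 to 3. The mitotic kinesins stood at 0.02, -0.07 and -0.02 in ZNF593-AS libraries and at 0.03, 0.11 and -0.01 in vector libraries. The groups overlapped for both roles, as they did for the other kinesins. Genes grouped as centromere proteins stood at 0.002, 0.03 and 0.01 in ZNF593-AS libraries. In vector libraries they stood at -0.007, -0.01 and -0.05, so these small medians did not overlap. How often other sets of genes separate in this way was not taken.

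**Figure D4:**
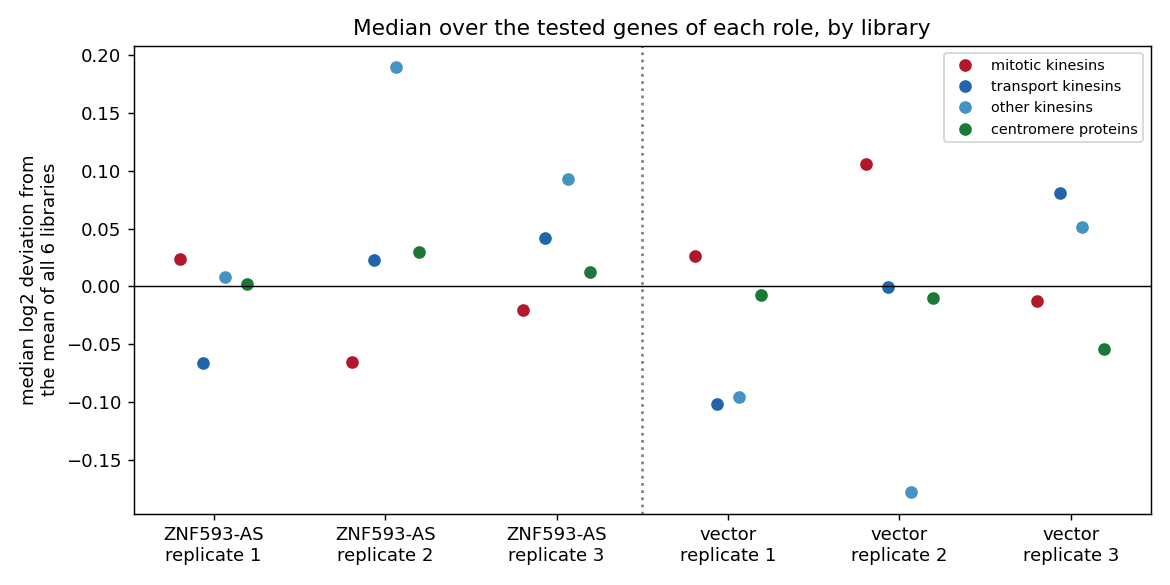
Median log2 deviation of the tested members of each role from the mean of all 6 libraries, ZNF593-AS libraries left of the dotted line and vector libraries right of it. Transport kinesins run from -0.07 to 0.04 in ZNF593-AS and from -0.10 to 0.08 in vector libraries. Mitotic kinesins run from -0.07 to 0.02 and from -0.01 to 0.11, so the groups overlap for both roles. They overlap for the other kinesins too. Centromere proteins run from 0.002 to 0.03 in ZNF593-AS and from -0.05 to -0.007 in vector libraries, without overlap.

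Partners of the transport kinesins, such as light chains and mitochondrial adaptors, gave 0 calls among 12 tested by edgeR, DESeq2 or voom, with 2 higher at an unadjusted p under 0.05. Mapk8ip1, a scaffold that links cargo to kinesin-1, had the smallest p, with 3.66, 4.59 and 4.04 CPM in ZNF593-AS libraries and 3.54, 3.32 and 2.83 CPM in vector libraries (0.35 ± 0.13, edgeR adjusted p 0.144). With library totals it passed (0.44, adjusted p 0.0355).

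Among these lists of partners and other motors, the largest change was in dynein, the motor that runs the other way along microtubules. Dync1h1, its heavy chain, had 199.6 to 200.8 CPM in the 3 ZNF593-AS libraries, against 320.0, 349.6 and 383.0 CPM in vector libraries. The 3 ZNF593-AS libraries were almost equal and far below all vector libraries. The log2 fold change was -0.81 ± 0.07 (edgeR adjusted p 3.26e-07). Of the 18 tested dynein and dynactin genes, 1 was lower, Dync1h1, and 1 higher, the light chain gene Dynlt3, with 95.5, 115.0 and 112.3 CPM in ZNF593-AS libraries and 95.9, 86.7 and 87.7 CPM in vector libraries. Its log2 fold change was 0.26 ± 0.07 (edgeR adjusted p 0.0409), and its groups overlapped, with ZNF593-AS replicate 1 just under vector replicate 1. The Dynlt3 call too was lost on leaving out any 1 of replicates 2 and 3 of either group. The list's median was 0.01.

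Of the other kinesins 8 were tested and 0 were called by edgeR, DESeq2 or voom, with 1 higher at an unadjusted p under 0.05. That gene, Kif2a, depolymerises microtubules at spindle poles and in interphase cells. It had 61.8, 62.5 and 65.8 CPM in ZNF593-AS libraries and 57.4, 52.8 and 57.6 CPM in vector libraries, with no overlap (0.18 ± 0.06, edgeR adjusted p 0.0984). With library totals it passed (0.27, adjusted p 0.00984), and 17.4% of its exon bases lie in Dimt1 on the opposite strand. Kif21a, which slows microtubule growth at the cell cortex, had 86.5, 87.5 and 102.5 CPM in ZNF593-AS libraries and 94.7, 92.0 and 106.1 CPM in vector libraries (-0.08 ± 0.08, edgeR adjusted p 0.594). Kif7, a regulator of Hedgehog signalling at the tip of the cilium, had 48.5, 48.1 and 52.3 CPM in ZNF593-AS libraries and 50.3, 48.7 and 51.0 CPM in vector libraries (-0.01 ± 0.06, edgeR adjusted p 0.948). Both overlapped between the groups. Of the exon bases of Kif7, 19.1% lie in 9330171B17Rik on the opposite strand. Kif9, Kif24, Kif26b and Kif27 averaged under 1 TPM, and Kif1bp, which binds kinesins without being one, gave 0.05 ± 0.07 (edgeR adjusted p 0.753).

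The 17 genes grouped as centromere proteins, all Cenp names other than Cenpe, were all tested. They include Cenpj by its name, though it works at centrioles. Apart from Cenpj none was called by edgeR, DESeq2 or voom, and the median log2 fold change of the 17 was -0.004. Cenpb had 410.5, 412.7 and 495.5 CPM in ZNF593-AS libraries and 444.1, 323.9 and 413.4 CPM in vector libraries (0.16 ± 0.11, edgeR adjusted p 0.466). It was the member with the widest spread among those above 100 TPM, and its groups overlapped. Cenpa had 26.1, 25.1 and 26.4 CPM in ZNF593-AS libraries and 23.9, 26.2 and 22.6 CPM in vector libraries (0.10 ± 0.07, edgeR adjusted p 0.506).

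The constitutive network, through which CENP-A chromatin is tied to the kinetochore, had a median log2 fold change of -0.02 over its 12 subunits, with 0 called by edgeR, DESeq2 or voom and 2 higher at an unadjusted p under 0.05. Cenpk came nearest to a call, with 6.38, 8.28 and 6.91 CPM in ZNF593-AS libraries and 5.51, 5.49 and 5.86 CPM in vector libraries (0.35 ± 0.11, edgeR adjusted p 0.0658). Its groups did not overlap, and ZNF593-AS replicate 2 was the highest. Cenpk passed with library totals (0.44, adjusted p 0.0119), with no filter on low counts (0.36, adjusted p 0.0271) and without ZNF593-AS replicate 1 (0.44, adjusted p 0.0279). Cenpw, a histone-fold subunit, was the other at an unadjusted p under 0.05, with 3.87, 3.79 and 3.91 CPM in ZNF593-AS libraries and 2.60, 3.10 and 3.43 CPM in vector libraries (0.33 ± 0.13, edgeR adjusted p 0.15). With library totals Cenpw passed as well (0.42, adjusted p 0.0479).

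The most abundant subunits gave small differences. Cenpq had 112.9, 109.0 and 119.9 CPM in ZNF593-AS libraries and 127.6, 113.6 and 108.9 CPM in vector libraries (-0.03 ± 0.07, edgeR adjusted p 0.836). Cenph had 34.2, 32.4 and 31.9 CPM in ZNF593-AS libraries and 33.05, 35.0 and 34.2 CPM in vector libraries (-0.06 ± 0.06, edgeR adjusted p 0.688). Both overlapped between the groups. Cenpf, a large protein of the outer kinetochore and nuclear envelope, had 85.7, 87.85 and 86.8 CPM in ZNF593-AS libraries and 89.4, 89.1 and 78.0 CPM in vector libraries (0.02 ± 0.06, edgeR adjusted p 0.894). Cenpv, a midzone protein, had 13.1, 12.6 and 12.97 CPM in ZNF593-AS libraries and 12.1, 11.7 and 10.9 CPM in vector libraries, without overlap (0.16 ± 0.08, edgeR adjusted p 0.277).

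Among 8 tested genes of CENP-A loading and the inner centromere 1 was called, Hjurp, the chaperone that deposits CENP-A. It had 98.9, 97.6 and 95.2 CPM in ZNF593-AS libraries, against 105.0, 120.4 and 125.9 CPM in vector libraries, with no overlap (-0.27 ± 0.07, edgeR adjusted p 0.0212). That call was lost with library totals (-0.18, adjusted p 0.125) and on leaving out any 1 of replicates 2 and 3 of either group. The other 7 genes of the list did not pass.

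Promoters were read from RefSeq (GRCm38.p6), 250 bases before to 50 bases after each listed start, to show what the mitotic kinesins share in sequence. The table matched 50 of the 57 members, with 56 windows. The first motif searched was TTTGAA, the cell cycle genes homology region, and the second CCAAT, the box bound by NF-Y, each on both strands. The sequences below run 5′ to 3′ on the gene's strand, with matches to either motif in capitals (TTCAAA and ATTGG are the matches on the other strand). Shown are the 3 called members and 3 mitotic kinesins that were not called, all 3 with a TTTGAA match. The windows of Kif18a, also not called, and Kif2b, not tested, have no such match.
Kif11, chr19:37376132-37376431, plus strand: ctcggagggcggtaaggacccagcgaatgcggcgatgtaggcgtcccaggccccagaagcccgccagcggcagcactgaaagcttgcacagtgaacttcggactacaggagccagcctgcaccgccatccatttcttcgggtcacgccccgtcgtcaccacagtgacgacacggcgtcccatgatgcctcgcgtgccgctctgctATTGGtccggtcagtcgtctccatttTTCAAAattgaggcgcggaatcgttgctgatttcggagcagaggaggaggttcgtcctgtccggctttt
Kif15, chr9:122950831-122951130, plus strand: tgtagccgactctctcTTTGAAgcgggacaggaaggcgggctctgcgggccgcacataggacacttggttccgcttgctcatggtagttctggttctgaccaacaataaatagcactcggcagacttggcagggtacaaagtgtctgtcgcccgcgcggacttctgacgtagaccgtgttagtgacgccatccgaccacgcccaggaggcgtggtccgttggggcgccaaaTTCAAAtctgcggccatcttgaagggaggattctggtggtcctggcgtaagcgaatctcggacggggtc
Kif23, chr9:61946750-61947049, minus strand: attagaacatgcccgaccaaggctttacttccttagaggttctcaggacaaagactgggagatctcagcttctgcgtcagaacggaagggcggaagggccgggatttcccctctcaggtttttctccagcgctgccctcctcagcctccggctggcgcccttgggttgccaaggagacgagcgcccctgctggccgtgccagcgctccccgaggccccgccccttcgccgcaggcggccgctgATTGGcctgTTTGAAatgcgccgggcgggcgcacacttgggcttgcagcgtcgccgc
Cenpe, chr3:135212313-135212612, plus strand: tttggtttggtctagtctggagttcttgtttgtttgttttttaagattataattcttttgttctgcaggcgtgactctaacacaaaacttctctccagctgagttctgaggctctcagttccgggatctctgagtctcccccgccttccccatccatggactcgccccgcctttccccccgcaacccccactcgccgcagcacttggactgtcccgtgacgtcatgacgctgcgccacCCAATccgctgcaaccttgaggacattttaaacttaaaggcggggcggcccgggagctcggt
Cenpj, chr14:56571797-56572096, minus strand: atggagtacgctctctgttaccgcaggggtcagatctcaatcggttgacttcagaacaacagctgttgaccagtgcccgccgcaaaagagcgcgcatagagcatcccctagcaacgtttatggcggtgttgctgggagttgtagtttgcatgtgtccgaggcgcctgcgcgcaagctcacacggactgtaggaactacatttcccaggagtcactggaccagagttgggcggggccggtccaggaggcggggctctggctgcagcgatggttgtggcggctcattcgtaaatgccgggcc
Kif3c, chr12:3364882-3365181, plus strand: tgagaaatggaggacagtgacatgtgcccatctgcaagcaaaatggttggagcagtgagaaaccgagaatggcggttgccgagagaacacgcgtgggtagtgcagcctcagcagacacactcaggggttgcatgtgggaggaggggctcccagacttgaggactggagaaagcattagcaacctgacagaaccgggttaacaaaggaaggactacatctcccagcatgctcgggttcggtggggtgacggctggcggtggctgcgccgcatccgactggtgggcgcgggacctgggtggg

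TTTGAA was found in 9 of 12 windows of mitotic kinesins (75.0%), in 1 of 12 of transport kinesins (8.3%), in 2 of 12 of other kinesins (16.7%) and in 5 of 19 of centromere proteins (26.3%). Among all 32851 windows of the table the share was 17.9%. With windows kept only where the listed start lies within 1000 bases of the start of the gene in the count table, it was 7 of 10 for mitotic and 0 of 10 for transport kinesins. CCAAT was found in 8 of 12 windows of mitotic kinesins (66.7%), 4 of 12 of transport kinesins (33.3%), 4 of 12 of other kinesins (33.3%) and 13 of 19 of centromere proteins (68.4%), against 37.4% of all windows. Of the 3 called members, Cenpe has a CCAAT match and no TTTGAA in its window, and neither motif occurs in those of Cenpj and Kif3c. In Kif11 and Kif15 a TTTGAA match lies at position -19 from the listed start. The shares are descriptions of these letters, not of binding.

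**Figure D5:**
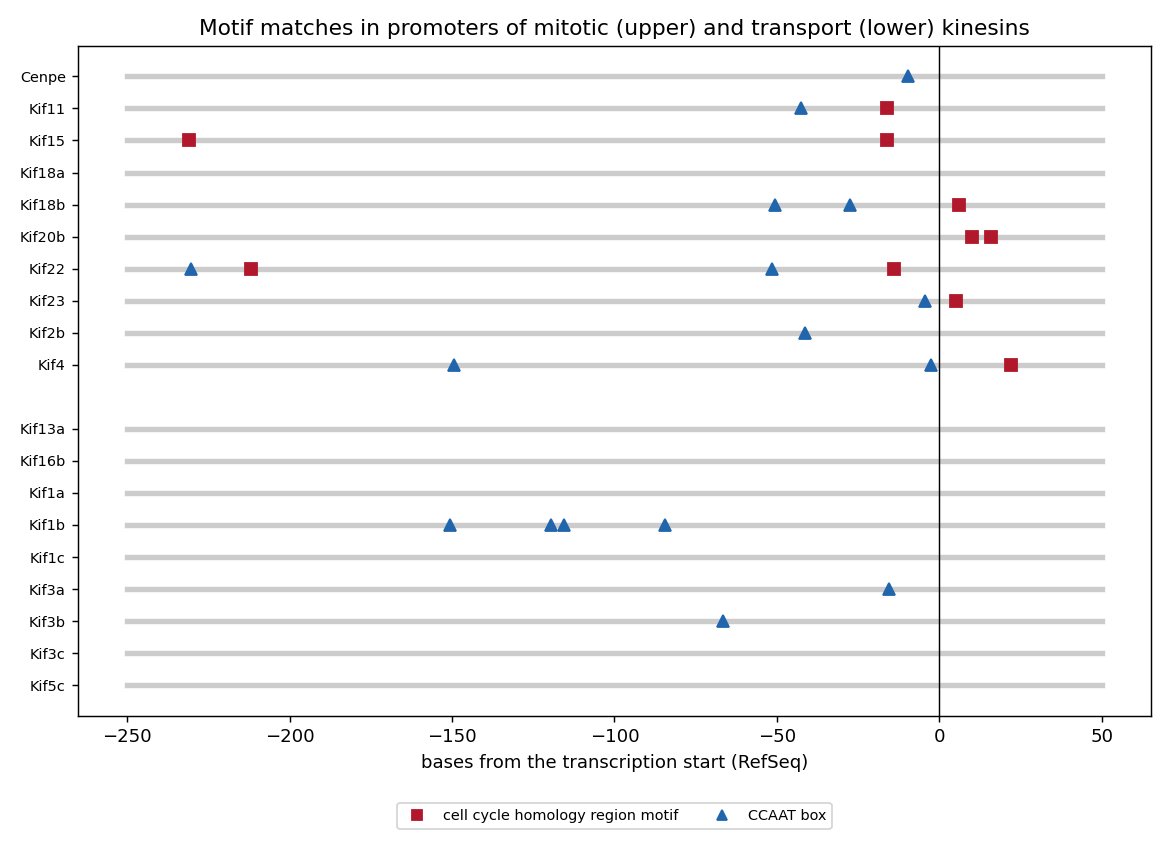
Matches to the cell cycle homology region motif (squares) and the CCAAT box (triangles), as bases from the listed start, in promoter windows whose start lies within 1000 bases of the gene start in the count table, with several windows of a gene drawn on 1 line. The homology motif occurs in 7 of 10 mitotic kinesins (upper block) and in 0 of 10 windows of transport kinesins (lower block).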

How the data were processed

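Total RNA of 6 HL-1 samples was sequenced, 3 with ZNF593-AS and 3 with vector, all under palmitic acid. The authors deposited whole-number read counts per gene with each gene's coordinates and exon length, without normalization, per the file headers. The submitters' processing notes list the tools TopHat2, Bowtie2, cutadapt 1.2.1 and CASAVA, with GRCm38 as genome build. Which program counted, and with what strand setting, is not given in the sources used here. Of genes with 1 to 199 counts, 76.8 to 78.7% had an even count, as when each fragment adds both of its mates.

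Members were found by their symbols, and roles were assigned from textbook knowledge. The members and lists were chosen with earlier results of these data known. The members named in full are those called, the 3 most abundant and the smallest p of each role, and those nearest the threshold; of other lists, the called genes or the smallest p. Kif15, Kif23, Cenpw, Kif13a, Plk4, Mki67, Top2a, Cdc25c, E2f1, Bmp10, Acta2, Tagln, Tnnt2, Parp4 and the genes in the last part were added after their values were seen. So were the other neighbours of called members and the fibroblast, smooth muscle and macrophage markers that did not pass.

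Genes passing filterByExpr (minimum count 10, minimum total 15) were scaled by TMM and tested with edgeR 4.0.16 in R 4.3.3 (robust quasi-likelihood F test, 2-sided, Benjamini-Hochberg, threshold 0.05), after tests on simulated data. CPM values use the TMM-scaled library size, and replicates varied by a biological coefficient of 7.69%. The SE is the size of the log2 fold change divided by the square root of F. Alternatives were library totals, median-ratio size factors, no filter, at least 1 CPM, DESeq2 1.42.0, voom in limma 3.58.1, halved counts, the replicate block and each library left out. Exon overlaps came from the coordinates deposited with the counts, and 50-base stretches shared with other genes from GENCODE M21 transcripts.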

Additional observations from a re-analysis of the deposited data

How the results depend on the processing

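Cenpj, Dync1h1 and Parp4 kept their direction and their calls in all alternatives. DESeq2, voom, median-ratio size factors, halved counts, a floor of 1 CPM and the replicate block called the same 3 members. The members called higher were 6 with library totals and 2 with no filter, and 0 to 2 when single libraries were left out. The members called lower were 1 with library totals and 1 to 3 when single libraries were left out. With library totals the medians were 0.0157 for mitotic kinesins, 0.0071 for transport kinesins and 0.0883 for centromere proteins, while that of all genes was 0.1003, against 0.0094 with TMM. With single libraries left out, the mitotic median ran from -0.0975 to -0.0318, the transport median from -0.118 to 0.0079, the centromere median from -0.0332 to 0.0411, and the mitotic minus transport difference from -0.1054 to 0.0468.

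Library totals added 0.0868 to 0.0929 to the log2 fold change of each of the 51 tested members, so the 12 that changed sign did so by that scaling's construction. Of the genes named in full these are Cenph (0.0346), Cenpq (0.0572), Kif11 (0.0302), Kif21a (0.005) and Kif7 (0.0793). When single libraries were left out, 16 of the 51 members changed sign at least once, none of them called in the full set. Among those named in full these are Cenpf (-0.0404 to 0.0578), Cenpq (-0.0827 to 0.0362), Kif1c (-0.0148 to 0.0504), Kif3a (-0.0761 to 0.0989) and Kif7 (-0.0478 to 0.0103), and the cause was not tested.

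Same-numbered libraries did not deviate together (correlations of -0.029, -0.03 and 0.049), so the numbers were not taken to pair samples. The fit with the replicate block called 1331 genes, against 1383 without it; of the genes named, Dynlt3 was lost under the block (0.25, edgeR adjusted p 0.0693). Depth limits the members of low level: the SE ran from 0.0579 to 0.1732 among those of at least 1 TPM and reached 0.5201 for Kif1a.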

Other observations

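Some motors and centromere genes fall outside the naming pattern. Kifc1, a minus-end directed kinesin that focuses spindle poles, had 23.7, 22.4 and 21.03 CPM in ZNF593-AS libraries and 24.7, 27.9 and 24.6 CPM in vector libraries. All ZNF593-AS libraries were below all vector libraries, but the log2 fold change of -0.20 ± 0.08 did not pass (edgeR adjusted p 0.14). Cenpc1, which links CENP-A chromatin to the outer kinetochore, had 19.2, 18.5 and 19.8 CPM in ZNF593-AS libraries and 20.4, 16.5 and 19.2 CPM in vector libraries (edgeR adjusted p 0.873). Kifap3, the accessory subunit of kinesin-2, had 16.8, 19.4 and 18.4 CPM in ZNF593-AS libraries and 19.7, 17.2 and 19.7 CPM in vector libraries (edgeR adjusted p 0.774). Both of these overlapped between the groups.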
